A study of Homo sapiens with 28 samples.

Results

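SK-N-MC cells, an established Ewing sarcoma line, were sampled 24 h and 48 h after short hairpin RNAs against CHD4 had been switched on, and the later time was compared with the earlier one. The comparison took 12 of the 28 libraries of the series: 3 of shCHD4#1 and 3 of shCHD4#2 at 24 h, and as many of each at 48 h. They were chosen by hairpin and time alone, and hairpin and replicate number were kept as blocks. All cells, the 10 shScramble control libraries included (5 at each time), carried a hairpin induced with 100 ng/ml doxycycline, so no group was free of the drug. Another hairpin, shFLI1, was not used for this comparison. The labels speak of biological replicates but not of how cultures were kept apart, so p-values measure the spread between these samples. For shScramble at 48 h the genotype field says CHD4 knockdown, but the titles and treatment fields say control hairpin.

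CHD4 is an ATPase that slides nucleosomes and serves as the motor of NuRD, a complex that also carries histone deacetylases. NuRD is best known for keeping genes of other lineages and germline genes silent, and it also occupies active promoters and enhancers. Ewing sarcoma is driven by a fusion of EWSR1 with an ETS factor, most often FLI1, and the fusion protein turns on a set of genes that the tumour cells need. The time step asks which transcripts went on moving during a second day of hairpin expression.

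CHD4 (ENSG00000111642, chromosome 12, 6570082 to 6614524, minus strand) was already low at 24 h, and no further step was detected. Values are normalised counts, that is, gene reads divided by 1 size factor per library. shCHD4#1 libraries held 2747, 2996 and 3226 at 24 h and 2959, 3126 and 3482 at 48 h. shCHD4#2 libraries held 2785, 2975 and 3465 and then 2722, 2801 and 2727. The shScramble libraries ranged from 10099 to 12879 and from 9343 to 13099.5, above every knockdown library. The step from 24 to 48 h was log2 -0.03, SE 0.06, adjusted p = 0.77, with 0.09 for shCHD4#1 and -0.16 for shCHD4#2, and neither hairpin's step passed the test (adjusted p = 0.472 and 0.135). CHD4 transcript was thus lowered at both times.

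The 12 libraries held 49530599 to 62741657 reads. All 8 Ewing markers listed were expressed (CD99 had a mean of 6111 at 24 h and 4752 at 48 h). Listed markers of other cell types were present in part. The 5 epithelial markers summed to 5492 to 10379 per library at 24 h and 4066 to 9728 at 48 h, mainly KRT18 and KRT8, while EPCAM had means under 3. The 6 fibroblast markers summed to 1172 to 1671 and 1292 to 1568, mainly COL1A1 and THY1, while DCN had means under 3. The 5 leukocyte markers summed to 81.2 to 143 and 95.4 to 188, mainly CD68 and PTPRC, with CD3E and LYZ near 0. Of 4 endothelial markers 3 were in the table, and they summed to 38.1 to 88.3 and 28.5 to 75.9, mainly CDH5. The ranges at the 2 times overlapped for each list, and the part of such RNA in the results was not tested. Replicates 1 and 2 held a larger share of processed pseudogenes (0.313 to 0.388%) than replicate 3 (0.223 to 0.275%). In shScramble the share was 0.317 to 0.372% in replicates 1 and 2 and 0.242 to 0.277% in replicates 3 to 5. The cause was not tested. Shares of mitochondrial ribosomal RNA (15.7 to 17.9% at 24 h, 16.3 to 19.5% at 48 h), mitochondrial messenger RNA, the 10 most abundant genes, histones and pseudogenes did not pass an exact sign-flip permutation test over the 6 pairs (p = 0.156 to 0.75, two-sided; the smallest possible p is 0.0312). Fewer cells of a kind and less RNA per cell cannot be told apart in such bulk samples.

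Between 24 and 48 h of CHD4 knockdown 2852 of 20831 genes tested passed limma's test at an adjusted p of 0.05 (13.7%): 1093 were higher (5.25%) and 1759 lower (8.44%). Most steps were small, with a median absolute log2 change of 0.37 among the called genes. A rise of at least 2-fold was seen in 178 of them and a fall of that size in 45. All 6 pairs of one hairpin and replicate number moved in one direction for 2349 of the 2852 called genes, and for 3736 of all 20831. The 6 values at 48 h lay wholly outside the range at 24 h for 255 called genes and 276 of all tested. The step rested on all 3 replicate numbers: it called 216 genes without replicate 3, 513 without replicate 1 and 1578 without replicate 2. Single libraries mattered as well: the count was 1474 without shCHD4#2 at 24 h replicate 3, 1475 without shCHD4#1 at 24 h replicate 2 and 1617 without shCHD4#1 at 48 h replicate 1. It was 1648 without shCHD4#2 at 48 h replicate 3, 1759 without shCHD4#2 at 24 h replicate 1 and 1838 without shCHD4#2 at 48 h replicate 1. Of the 82 genes called higher in replicates 1 and 2 alone, 72 were higher in both pairs of replicate 3 (87.8%, against 26.2% of all genes), and of the 134 called lower, 120 were lower in both (89.6%, against 29.5%).

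The same time step in shScramble called 0 of 20049 genes by limma (2461 at an unadjusted p under 0.05, and 8 by edgeR and 79 by DESeq2 at an adjusted 0.05). Genes called higher in the knockdown had a median step of 0.50 there and of 0.06 in shScramble. Genes called lower had medians of -0.33 and -0.07. The control step thus had the knockdown's sign in 66.5% of the genes called higher and 76.2% of those called lower, against 43.7% up and 56.3% down over all genes. When the knockdown step was tested against the shScramble step, 6 of 20531 genes passed (0.0292%), 4 higher (0.0195%) and 2 lower (0.00974%), with 2885 at an unadjusted p under 0.05. For most genes called over time, then, the step was not shown to differ from that of the control cells.

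The 12 largest rises, by the rule for named genes, held an immediate early gene, cancer-testis and reductase genes and many noncoding transcripts. EGR1, a zinc-finger transcription factor made within minutes of a growth signal (ENSG00000120738, chromosome 5, 138465490 to 138469315, plus strand), ranged from 6.94 to 22 (median 19.2) at 24 h and from 29.1 to 248 (median 132) at 48 h. The 2 ranges did not overlap, but replicate 1 of each hairpin was well below the others at 48 h. The fitted rise was log2 2.41, SE 0.30, adjusted p = 0.00132. In shScramble EGR1 ranged from 12 to 34.8 and then from 13.1 to 44.8, a step of 0.65 that was not called (adjusted p = 0.328), and the difference between the steps did not pass (log2 1.76, adjusted p = 0.146).

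The antisense transcript CCDC144NL-AS1 (chromosome 17, 20868433 to 21002276, plus strand) ranged from 60.4 to 225 (median 93.4) at 24 h and from 327 to 753 (median 495) at 48 h. Every library at 48 h was above every library at 24 h, and shScramble ranged from 9.63 to 19.5 and then from 5.09 to 20.5. Its rise was log2 2.16, SE 0.29, adjusted p = 0.00165. The overlapping gene CCDC144NL (chromosome 17, 20836447 to 20896140, minus strand) rose with it, from a mean of 71.2 to 267 (log2 1.86, adjusted p = 0.00265). The kit marks strand but the setting used for counting is not given, so reads of the pair may not have been told apart.

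DHRS2, a short-chain dehydrogenase and reductase (chromosome 14, 23630115 to 23645639, plus strand), held 108, 201 and 130.0 at 24 h and 1193, 315 and 281 at 48 h with shCHD4#1. With shCHD4#2 it held 131, 175 and 192 and then 1995, 525.8 and 432. All 6 late values were above all early ones, and replicate 1 was highest with each hairpin (log2 1.98, SE 0.37, adjusted p = 0.00678). Without replicate 3 the call ended (adjusted p = 0.0522). MAGEB6, a cancer-testis antigen of the X chromosome (chromosome X, 26192440 to 26195646, plus strand), ranged from 20.9 to 91.6 (median 31.9) and then from 88.5 to 322 (median 159.7), so that the lowest late value lay inside the early range. It rose in 6 of 6 pairs (log2 2.04, SE 0.29, adjusted p = 0.00205). In shScramble MAGEB6 stepped by 0.51, and the difference between the steps did not pass (log2 1.53, adjusted p = 0.237). GNG12, a G protein gamma subunit, had a mean of 24.4 and then 53.1 with shCHD4#1, and of 122 and then 786 with shCHD4#2. Its pooled step (log2 1.75, SE 0.36, adjusted p = 0.0103) stood at 2.66 with shCHD4#2 and 0.85 with shCHD4#1, and the difference did not pass (adjusted p = 0.104). It was not called without replicate 1 or without replicate 3. ZNF208, a zinc-finger gene, leaned the other way, with 2.36 for shCHD4#1 and 0.85 for shCHD4#2 (adjusted p of the difference = 0.161). The other 5 rises were the pseudogenes AACSP1 (1.64), ANKRD20A9P (1.69) and AC233702.1 (2.01) and the long noncoding RNAs AC007923.1 (2.11) and LINC00408 (1.77). Pseudogenes can share reads with near-identical copies, so these values are uncertain.

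**Figure D1:**
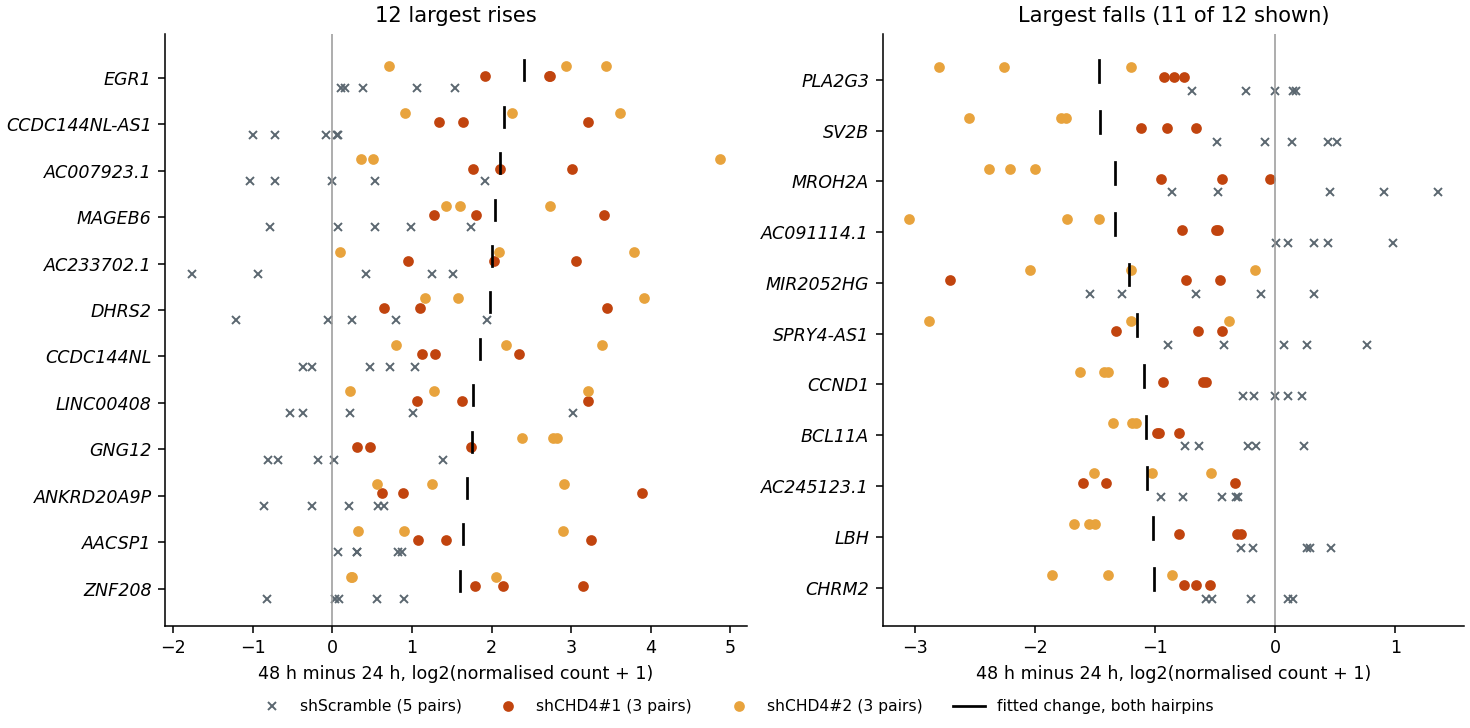
Step from 24 to 48 h in each pair of libraries of 1 replicate number (difference of log2(normalised count + 1)), for the 12 largest rises (left) and 11 of the 12 largest falls (right) in CHD4 knockdown cells. Dots are single pairs of shCHD4#1 and shCHD4#2, crosses the 5 shScramble pairs and black bars the fitted change over both hairpins. By the naming rule all 6 knockdown pairs lie on 1 side of 0; shScramble pairs lie on both sides for most genes.

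Among the 12 largest falls were genes of lipid handling, synaptic vesicles and the G1 phase of the cell cycle. PLA2G3, a secreted phospholipase A2 (chromosome 22, 31134809 to 31140607, minus strand), ranged from 297 to 409 (median 375) at 24 h and from 57.8 to 220.0 (median 169) at 48 h, with no overlap (log2 -1.46, SE 0.24, adjusted p = 0.00424). The step was -0.84 with shCHD4#1 and -2.09 with shCHD4#2, and without replicate 3 the pooled call ended (adjusted p = 0.0562). SV2B, a glycoprotein of synaptic vesicles (chromosome 15, 91099950 to 91301309, plus strand), held 2773, 2529.7 and 2755 and then 1281, 1355 and 1742 with shCHD4#1. With shCHD4#2 it held 1520.3, 1553 and 1632 and then 455, 265 and 475. Within each hairpin the times did not overlap, while the highest late value of shCHD4#1 was above all 3 early values of shCHD4#2 (log2 -1.46, SE 0.19, adjusted p = 0.00155). shScramble stood at 2643 and 2804.

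CCND1, which encodes cyclin D1 (chromosome 11, 69641087 to 69654474, plus strand), started from different levels with the 2 hairpins. It held 11799, 10615 and 10924 and then 6187, 7115 and 7187 with shCHD4#1, and 4339.6, 2775 and 3335 and then 1616, 897 and 1271 with shCHD4#2. All 6 pairs fell, and within each hairpin no late library reached an early one (log2 -1.09, SE 0.15, adjusted p = 0.00205). shScramble stood at 10914 ± 2911 and 11042 ± 3895 (SD, n = 5). BCL11A, a zinc-finger repressor (chromosome 2, 60450520 to 60555154, minus strand), fell by like amounts with both hairpins (-0.92 and -1.23), from a mean of 357 to 175 (log2 -1.08, adjusted p = 0.000651). In shScramble its step was -0.31 (unadjusted p = 0.0275, adjusted p = 0.353). LBH, a transcription cofactor, had a step of -1.02 over both hairpins (adjusted p = 0.0106). It was -0.47 with shCHD4#1, which did not pass (adjusted p = 0.186), and -1.57 with shCHD4#2 (adjusted p = 0.00119). The remaining falls were CHRM2, a muscarinic acetylcholine receptor (-1.01), MROH2A (-1.34), the antisense transcript SPRY4-AS1 (-1.15) and the long noncoding RNAs AC091114.1 (-1.33), MIR2052HG (-1.22) and AC245123.1 (-1.07). In shScramble MIR2052HG and AC245123.1 had steps of -0.65 and -0.56, and neither passed (adjusted p = 0.303 and 0.194).

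The 6 genes whose step differed from that of shScramble were called with both hairpins and moved in 6 of 6 pairs. DENND1A, an activator of the membrane-traffic switch Rab35 (chromosome 9, 123379654 to 123930152, minus strand), ranged from 415 to 669 (median 499.9) at 24 h and from 704 to 1187 (median 904) at 48 h, with no overlap. shScramble ranged from 373 to 551 and then from 307 to 624. The knockdown step of 0.86 exceeded the control step of -0.10 (difference 0.96, SE 0.15, adjusted p = 0.0251). The knockdown and control libraries of DENND1A overlapped at 24 h and not at 48 h. LRRC6, needed to assemble the dynein arms of cilia, was already above shScramble at 24 h (363 to 531 (median 415), against 219.6 to 298) and ranged from 642 to 730.0 (median 683) at 48 h, again without overlap between the times (difference of steps 0.79, adjusted p = 0.0251). TVP23C-CDRT4, a readthrough transcript that shares exons with its neighbours (chromosome 17, 15436021 to 15563561, minus strand), held 721, 862 and 530.1 and then 1108, 1062 and 747 with shCHD4#1. With shCHD4#2 it held 676, 857 and 485 and then 1239.8, 1439 and 843. Replicate 3 was lowest in each of the 4 groups, and each pair rose (difference 0.65, adjusted p = 0.0324). CCDC144NL-AS1, described above, rose as well (difference 2.49, adjusted p = 0.04998).

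The 2 genes that fell more than in shScramble were both on the list of EWS-FLI1 activated targets. That list was written with earlier results of this series known, so their place on it is not independent evidence. CYP4F22, a fatty acid hydroxylase needed for skin ceramides (chromosome 19, 15508493 to 15552317, plus strand), held 765, 753 and 945 and then 379.5, 347 and 662 with shCHD4#1. With shCHD4#2 it held 617, 469.5 and 572 and then 265, 181 and 333. The times did not overlap within a hairpin, and the step was -1.0 against 0.13 in shScramble (difference -1.13, SE 0.17, adjusted p = 0.0251). FCGRT, the heavy chain of the neonatal Fc receptor (chromosome 19, 49506816 to 49526333, plus strand), ranged from 10541 to 14248 (median 12146) and then from 5758 to 9407 (median 8104), with no overlap, and shScramble ranged from 14079 to 18074 at 48 h (difference -0.68, adjusted p = 0.0459). None of these 6 differences was robust: each call ended without replicate 1, without replicate 3, without the replicate block and without any of 6 single shScramble libraries (24 h replicates 1, 3 and 4, 48 h replicates 2, 3 and 4). The same held without shCHD4#2 at 24 h replicate 1 and without shCHD4#2 at 48 h replicate 3. The sign never changed over the 36 alternatives, in which adjusted p reached up to 0.379 for LRRC6, 0.336 for DENND1A, 0.643 for TVP23C-CDRT4, 0.386 for CCDC144NL-AS1, 0.316 for CYP4F22 and 0.336 for FCGRT.

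**Figure D2:**
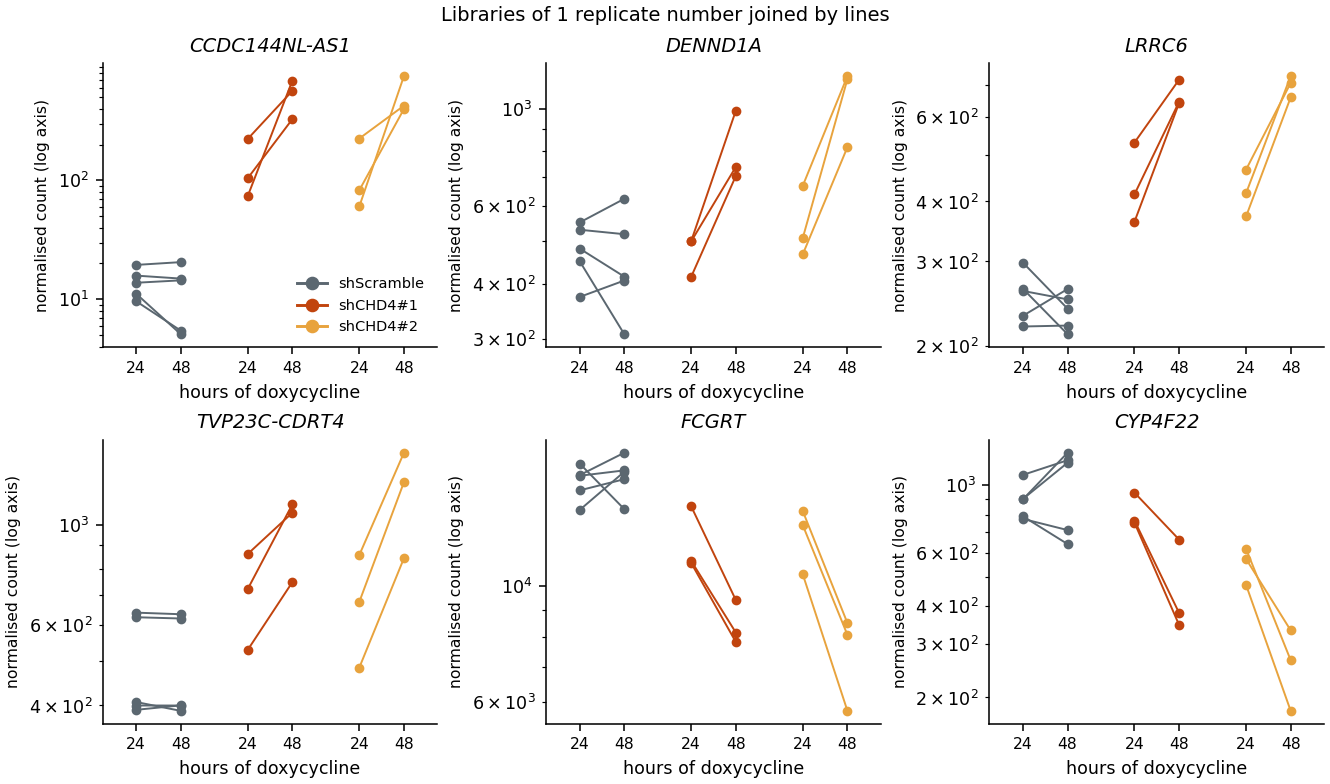
Normalised counts (log axis) of the 6 genes whose step from 24 to 48 h differed between CHD4 knockdown and shScramble, by hours of doxycycline. Each line joins the libraries of 1 replicate number (5 for shScramble, 3 for each CHD4 hairpin); all 6 knockdown lines rise for CCDC144NL-AS1, DENND1A, LRRC6 and TVP23C-CDRT4 and fall for FCGRT and CYP4F22.

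Of 42 EWS-FLI1 activated targets tested, 15 fell between 24 and 48 h and 1 rose, with a median step of -0.28 (all genes tested: 8.44% lower, 5.25% higher, median -0.01). In single pairs the median over the list was -0.22, -0.14 and -0.01 with shCHD4#1 and -0.31, -0.64 and -0.46 with shCHD4#2, so all 6 pairs were below 0 and those of shCHD4#2 lowest. The 5 shScramble pairs had medians of -0.18 to 0.09. Beside FCGRT, CYP4F22 and CCND1, the rule named NPY1R, a neuropeptide Y receptor, which fell from a mean of 1327 to 876 (log2 -0.60, adjusted p = 0.00155). By hairpin, 8 members fell with shCHD4#1 (3.07% of all genes did) and 25 with shCHD4#2 (11.4% of all genes). The pooled count was 10 to 19 when 1 library was left out and 5 without replicate 3. The list was written with earlier results of this series known and is not independent evidence of its direction.

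The reads of the fusion's 2 partner genes fell slightly over the same step. FLI1 (chosen after its values were seen, as was EWSR1) ranged from 3332 to 3971 (median 3773) and then from 2634 to 3704 (median 3190.1) (log2 -0.22, adjusted p = 0.0311), and shScramble stepped by -0.14 (difference adjusted p = 0.702). EWSR1 ranged from 15374 to 17298 (median 16024) and then from 11685 to 14895 (median 13465) (log2 -0.26, adjusted p = 0.00973), with -0.14 in shScramble (difference adjusted p = 0.484). With shCHD4#1 neither gene passed (FLI1 -0.10, adjusted p = 0.408, and EWSR1 -0.18, adjusted p = 0.129). With shCHD4#2 both did (-0.33, adjusted p = 0.00725, and -0.34, adjusted p = 0.00609). Counts per gene do not part the fusion transcript from the unrearranged genes. Of 26 EWS-FLI1 repressed targets tested, 2 rose and 3 fell, which is 19.2% called against 13.7% of all genes (median 0.04). By hairpin, with shCHD4#1 0 rose and 5 fell, and with shCHD4#2 9 rose (7.79% of all genes did) and 3 fell. IGFBP5, an insulin-like growth factor binding protein, fell from 1749 to 883 (log2 -0.96, adjusted p = 0.000651) and stepped by -0.59 in shScramble. ITGA5, the fibronectin receptor's alpha chain, rose from 4977 to 6309 (log2 0.33, adjusted p = 0.0259). Its step was 0.14 with shCHD4#1 (adjusted p = 0.404) and 0.53 with shCHD4#2 (adjusted p = 0.00428), and the call over both ended in 11 of 26 alternatives.

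**Figure D3:**
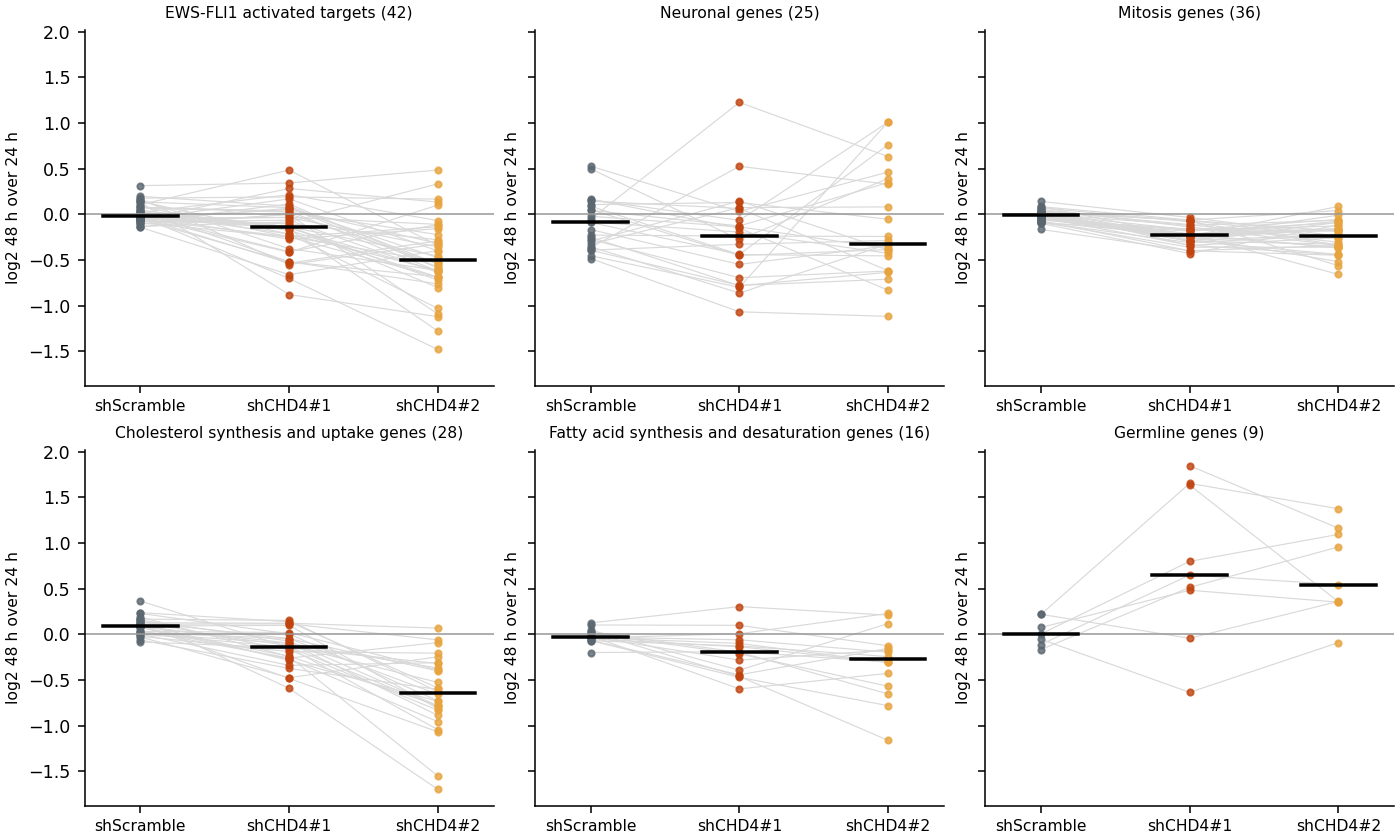
Fitted step from 24 to 48 h (log2) of every tested member of 6 gene lists in shScramble, shCHD4#1 and shCHD4#2; grey lines join the values of 1 gene and black bars are medians. Members of the EWS-FLI1 activated and cholesterol lists sit lowest with shCHD4#2 (medians -0.50 and -0.64), the mitosis medians are -0.23 and -0.24 with the 2 hairpins, and the germline medians are 0.65 and 0.54.

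Many genes of mitosis fell by small amounts. Of 36 tested, 19 fell (52.8%) and 0 rose, and all 36 had a fitted step below 0 (median -0.21). Of all genes tested 8.44% fell, and of protein-coding genes 11.1%. The median over the list was -0.02, -0.25 and -0.40 in the pairs of shCHD4#1 and -0.21, -0.17 and -0.31 in those of shCHD4#2, and ranged over -0.14 to 0.14 in shScramble. Both hairpins thus gave about the same median (-0.23 and -0.24). With shCHD4#1 5 members were called lower (3.07% of all genes were) and with shCHD4#2 16 (11.4%). PLK1, the kinase that drives entry into mitosis, ranged from 4765 to 6282 (median 5211) and then from 3621 to 4721 (median 3968) (log2 -0.43, SE 0.05, adjusted p = 0.00121). MAD2L1, of the spindle checkpoint, fell from a mean of 3398 to 2631 (log2 -0.37, adjusted p = 0.00212). PTTG1, which encodes securin, fell from 2014 to 1567 (-0.36, 0.00227), and CDK1, the mitotic cyclin-dependent kinase, from 3718 to 2874 (-0.37, 0.00431). In brackets after a gene, here and in what follows, stand the log2 step and limma's adjusted p. The count was 14 to 24 with 1 library left out and 1 without replicate 3, where the median was -0.16. Against the shScramble step 0 members passed limma's test of the difference, and 21 had an unadjusted p under 0.05.

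Promoters of mitotic genes are known to carry a cell cycle homology element and CCAAT boxes, so both were looked for in RefSeq promoters (GRCh38.p14) of 300 bases, from 250 before the start. The letters TTTGAA, on either strand, were in 21 of the 30 mitosis list promoters found in the table (70.0%), against 15.4% of all 27305 promoters. CCAAT, on either strand, was in 26 of 30 (86.7%), against 35.7%. Of the 17 promoters whose genes fell, 10 held TTTGAA and 15 held CCAAT, and of the 13 that were not called 11 held each. These counts describe letters only. The 250 bases before the start of PLK1 and CDK1, which fell, are shown because both hold the 2 motifs, which are in capitals.
PLK1 (GRCh38.p14, chr16:23678639-23678888, plus strand): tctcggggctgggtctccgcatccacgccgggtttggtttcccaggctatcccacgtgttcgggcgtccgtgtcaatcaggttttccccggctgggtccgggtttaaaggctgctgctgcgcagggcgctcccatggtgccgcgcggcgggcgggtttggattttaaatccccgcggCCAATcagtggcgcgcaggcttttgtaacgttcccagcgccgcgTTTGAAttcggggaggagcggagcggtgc
CDK1 (GRCh38.p14, chr10:60778081-60778330, plus strand): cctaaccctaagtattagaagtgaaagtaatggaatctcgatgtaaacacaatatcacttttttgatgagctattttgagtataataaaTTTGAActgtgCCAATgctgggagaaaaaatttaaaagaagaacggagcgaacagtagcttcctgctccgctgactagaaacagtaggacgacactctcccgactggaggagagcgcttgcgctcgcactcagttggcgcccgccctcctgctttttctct

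DNA replication and E2F target genes went the same way, with 11 of 40 lower (27.5%, against 8.44% of all genes). None was higher, and the median was -0.14. The count was 4 to 12 with 1 library left out, lowest without shCHD4#2 at 24 h replicate 3, and 0 without replicate 3. PCNA, the sliding clamp of replication, fell from 11907 to 9451 (log2 -0.34, adjusted p = 0.00669), and MCM7 of the replicative helicase from 17826 to 14089.7 (-0.38, 0.00825). Of 10 polyadenylated histone variant genes 5 fell (50%). Among them were MACROH2A2 (log2 -0.42, adjusted p = 0.00104) and H2AZ1 (-0.39, 0.00355). Of 47 replication-dependent histone genes 6 fell and 2 rose, and single pairs ranged in median from -0.49 to 0.10. The 2 pairs of replicate 3 were the lowest of these. The count of lower histone genes was 1 without shCHD4#1 at 24 h replicate 2 and 0 without replicate 3. Of 33 DNA repair genes 6 fell (18.2%), XRCC5 of the Ku end-joining complex among them (-0.37, adjusted p = 0.00217). Of all protein-coding genes 11.1% fell, and a higher share than that above a mean level of 1000.

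Genes of cholesterol synthesis and uptake are driven by the sterol-sensing factors of the SREBP family. Of 28 tested, 10 fell (35.7%, against 8.44% of all genes) and 0 rose, with a median of -0.36, the lowest of the 32 lists. With shCHD4#2 the median in its pairs was -0.51, -0.54 and -0.79, and with shCHD4#1 it was -0.24, 0.09 and -0.22, while shScramble pairs had -0.03 to 0.19. So 21 members fell with shCHD4#2 (11.4% of all genes) and 2 with shCHD4#1 (3.07%). The step of shCHD4#2 was not shown to differ from that of shCHD4#1 for any single member. INSIG1, which holds SREBP in the endoplasmic reticulum and is itself a target (chosen after its values were seen), shows the pattern. It held 1937, 2919 and 2515 and then 1397, 2982 and 2052 with shCHD4#1, where 1 of 3 pairs rose. With shCHD4#2 it held 1776, 2278 and 1830.3 and then 832, 659.5 and 533, with no overlap (log2 -0.90, adjusted p = 0.028 over both; adjusted p of the hairpin difference = 0.085). FDPS, which makes farnesyl diphosphate, fell by close amounts with both hairpins (shCHD4#1 -0.34, shCHD4#2 -0.31, adjusted p = 0.00215 over both). ACAT2, of the first step, stood at -0.38 with shCHD4#1 and -0.60 with shCHD4#2 (0.00416 over both). SQLE, squalene epoxidase, stood at -0.29 and -0.74 (0.0124 over both). The count was 6 to 23 with 1 library left out, lowest without shCHD4#2 at 48 h replicate 3, and 0 without replicate 3 (median -0.31). Against the shScramble step 0 members passed limma's test of the difference, and 21 had an unadjusted p under 0.05.

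Of 16 fatty acid synthesis and desaturation genes, 10 fell (62.5%, against 8.44% of all genes) and 0 rose, with a median of -0.23. In single pairs the median was -0.26, -0.14 and -0.26 with shCHD4#1 and -0.19, -0.34 and -0.24 with shCHD4#2. It was -0.09 to 0.06 in shScramble. All 6 knockdown pairs lay below all 5 control pairs. By limma's test of the difference from the shScramble step, 0 members passed and 7 had an unadjusted p under 0.05. SCD, the stearoyl-CoA desaturase, ranged from 15188 to 29317 (median 21599) and then from 8766 to 22709 (median 13839) (log2 -0.63, SE 0.07, adjusted p = 0.00117). SREBF1, which encodes the SREBP-1 factors, fell from a mean of 3532 to 2052 (-0.81, adjusted p = 0.00218), with -0.46 for shCHD4#1 and -1.16 for shCHD4#2. ACLY, which makes cytosolic acetyl-CoA, fell by 0.23 and the desaturase FADS2 by 0.39 on the log2 scale. The count was 8 to 11 with 1 library left out and 2 without replicate 3. The letters TCACNCCAC, a form of the sterol element, on either strand, were in 1 of 20 cholesterol list promoters and 0 of 14 fatty acid list promoters in the RefSeq table, against 1.15% of all.

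Germline genes are silent in most adult tissues. Only 9 of the 32 listed genes had a mean over all 12 libraries high enough to be tested; 6 of these rose and 0 fell (5.25% of all genes rose), with a median of 0.73. MAGEC2, a cancer-testis antigen, held 37.3, 79.5 and 63.5 and then 139, 244 and 179 with shCHD4#1, and 12.1, 35.2 and 26.4 and then 66.6, 61.4 and 52.6 with shCHD4#2. Each of its 6 pairs rose (log2 1.51, SE 0.19, adjusted p = 0.00132), and shScramble stood at 16.2 and 20.6. MAGEA2 (log2 1.5, adjusted p = 0.00285), MAGEA3 (0.73, 0.00818) and MAGEA6 (0.95, 0.0112) rose too, and since these have near-identical copies their reads may be shared. The list median was above 0 in all 6 knockdown pairs (0.92, 0.56 and 0.51 with shCHD4#1, 1.29, 0.73 and 0.33 with shCHD4#2) and -0.25 to 0.19 in shScramble. Of the 6 calls, 2 were made without replicate 3. Against the shScramble step 0 members passed limma's test of the difference, and 5 had an unadjusted p under 0.05.

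Of 25 neuronal genes tested 8 fell and 1 rose, which is 36.0% called against 13.7% of all genes (median -0.26). SYP (synaptophysin) fell from a mean of 289 to 174 (log2 -0.75, adjusted p = 0.00619), SCG2 (secretogranin II) from 301 to 186 (-0.71, 0.0038), and INA (alpha-internexin of neuronal filaments) from 2939.7 to 2368 (-0.31, 0.00256). The steps of these 3 genes in shScramble, none of them called, were -0.39, -0.25 and -0.39, and the list median there was -0.09. The count of lower members was 5 to 9 with 1 library left out and 2 without replicate 3. Of 27 mesenchymal and matrix genes 5 fell and 2 rose (25.9% called). The basement membrane collagen COL4A2 fell from 9973 to 7250.4 (-0.51, adjusted p = 0.0019) and COL6A3 rose from 37.7 to 62.8 (0.70, 0.00717). Of 13 striated muscle genes 2 rose and 2 fell (30.8% called). DES, the muscle filament desmin, rose from 29.4 to 87.6 (1.63, 0.0171). Of 30 HOX genes 3 fell, a share (10.0%) near the 8.44% of all genes. These included HOXA9 (-0.53, 0.00825) and HOXA10 (-0.52, 0.00868).

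In the lists on growth and energy supply the medians were small, and those of shScramble had the same sign. Of 34 ribosome biogenesis genes 12 fell (35.3%) and 0 rose, at a median of -0.12 against -0.16 in shScramble. Over all genes tested 8.44% fell, and over protein-coding genes 11.1%, with a higher share than that above a mean level of 1000. NPM1, the nucleolar chaperone nucleophosmin, fell from a mean of 51137 to 36856 (log2 -0.56, adjusted p = 0.00424) and stepped by -0.20 in shScramble. Its knockdown libraries ranged widely, from 17750 to 90191.5 at 24 h and from 11076 to 61416 at 48 h. The call ended without the replicate block and without replicate 3. UBTF, which loads RNA polymerase I, fell from 5721 to 4186 (-0.47, 0.00225). Of 46 cytosolic ribosomal protein genes 8 fell, of 36 nuclear-encoded respiratory chain genes 9 fell, and of 31 glycolysis and hypoxia genes 8 fell, with 0 higher in each. Their medians were -0.12, -0.06 and -0.14, against -0.09, -0.10 and -0.05 in shScramble. LDHA, lactate dehydrogenase A, fell from 22397 to 17363 (-0.37, 0.00218) and stepped by -0.19 in shScramble. Of 19 NRF2 antioxidant genes 6 fell and 1 rose, which is 36.8% called against 13.7% of all genes (median -0.17, shScramble -0.13). Without replicate 3 the counts of lower members were 3 (ribosome biogenesis), 0 (ribosomal proteins), 0 (respiratory chain), 0 (glycolysis) and 0 (NRF2). The glycolysis count was 3 to 8 and the ribosomal protein count 0 to 10 when 1 library was left out, both lowest without shCHD4#1 at 24 h replicate 2.

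Interferon genes split, with 4 of 28 higher and 4 lower (28.6% called, against 13.7% of all genes). OAS1, a sensor of double-stranded RNA, fell from a mean of 675 to 371 (-0.96, adjusted p = 0.00424) and IFI44 from 1951 to 1417 (-0.52, 0.00662), while STAT2 of the receptor pathway rose from 1919.8 to 2330.0 (0.29, 0.00591) and IFI27 from 35.4 to 64.1 (0.86, 0.00557). Of immediate early and AP-1 genes, 25 tested, 3 were called higher and 3 lower (24.0% called). The fitted step was above 0 for 20 and below 0 for 5, with a median of 0.32 against 0.10 in shScramble. Their median was -0.05 with shCHD4#1 and 0.61 with shCHD4#2, which called 10 of them higher (7.79% of all genes). After EGR1, IER2 rose from 1148 to 1544 (0.40, 0.0134), and NR4A1, an orphan nuclear receptor, fell from 561 to 439 (-0.35, 0.0189).

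**Figure D4:**
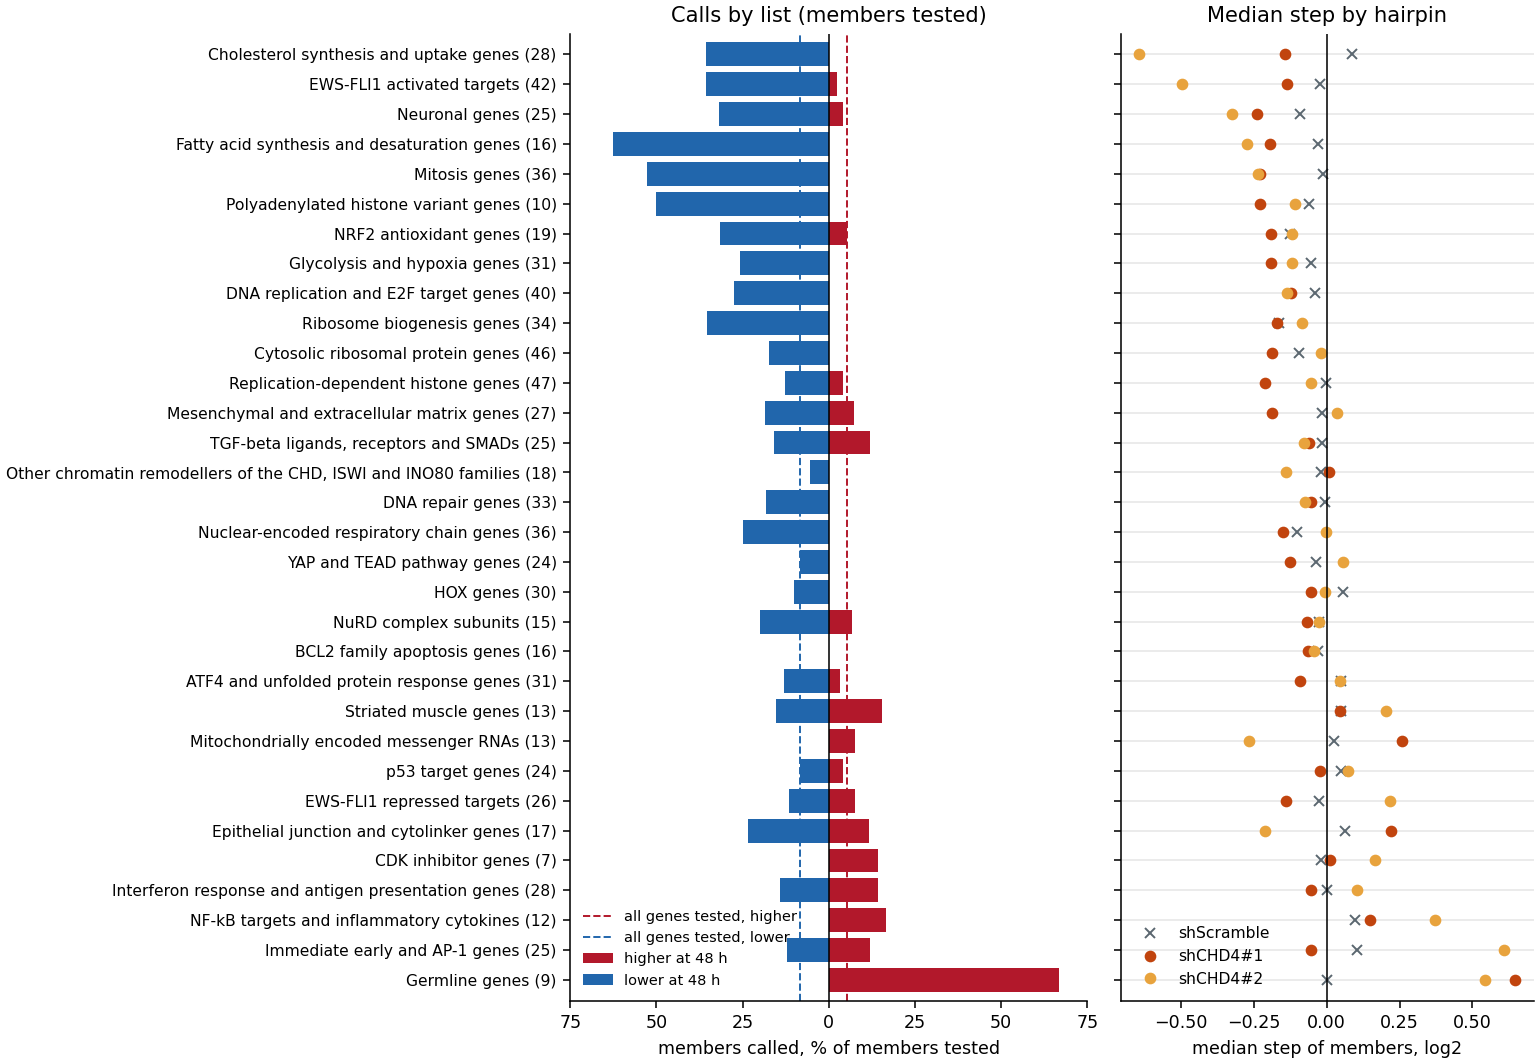
Left, percent of the tested members of each of 32 gene lists (number tested in brackets) called higher (red) or lower (blue) at 48 h against 24 h of CHD4 knockdown, with dashed lines at the shares over all genes tested, 5.25% and 8.44%. Right, median step of the members (log2) in shScramble, shCHD4#1 and shCHD4#2. The share called lower depended on gene type and level. It was 11.1% of protein-coding genes, with 1.89% at mean levels of 10 to 30 and 9.46% at 300 to 1000. Levels above 1000 were not counted apart. Each band of coding genes from 10 to 1000 was below 11.1% (1.89%, 4.33%, 8.19% and 9.46%), so above 1000 the share was higher than 11.1%. The lines thus understate the share for lists of abundant coding genes. Fatty acid and mitosis genes had the largest shares called lower and germline genes the largest share called higher.

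Of 15 subunits of NuRD itself 26.7% were called, against 13.7% of all genes. GATAD2B rose (log2 0.20, adjusted p = 0.0324) and RBBP4 (-0.36, 0.0112), CHD3 (-0.15, 0.0367) and HDAC1 (-0.17, 0.0494) fell. The call of GATAD2B ended in 14 of 26 alternatives. The calls of CHD3 and of HDAC1, a deacetylase, ended in 19 and 19 of 26 alternatives, and that of RBBP4, a histone chaperone, in 4. Of 18 other remodellers 1 fell (5.56%, against 8.44% of all genes), CHD1L (-0.27, 0.0237). No BCL2 family gene was called by limma (0 of 16, and 1 had an unadjusted p under 0.05). Of 24 p53 targets 1 rose and 2 fell, a share called (12.5%) near the 13.7% of all genes. FAS, the death receptor, was one of the latter, from 2214 to 1599 (-0.51, 0.00703). In the TGF-beta list 3 of 25 rose and 4 fell, and in the YAP and TEAD list 2 of 24 fell and 0 rose. Of 17 epithelial junction genes 2 rose and 4 fell, which is 35.3% called against 13.7% of all genes, and 0 were called without replicate 3. Of 31 ATF4 and unfolded protein response genes 1 rose and 4 fell, a share called (16.1%) near the 13.7% of all genes. Of 12 NF-kB targets 2 rose (16.7%), of 7 CDK inhibitors 1 rose (14.3%) and of 13 mitochondrially encoded messenger RNAs 1 rose (7.69%), with 0 lower in each. Over all genes tested 5.25% rose, and these lists are small.

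The 2 hairpins were compared in their step as well. In a joint fit of the 12 libraries, with shared replicate blocks and spread, the shCHD4#1 step called 962 genes (4.62%). Of these 323 were higher (1.55%) and 639 lower (3.07%). The shCHD4#2 step called 3998 (19.2%), 1623 higher (7.79%) and 2375 lower (11.4%). With each hairpin fitted by itself, shCHD4#1 called 736 higher and 926 lower, and shCHD4#2 1248 and 1681. In the joint fit both steps called 119 genes higher and 256 lower, and 4 genes were called in opposite directions. The shared calls are 39.0% of the shCHD4#1 calls and 9.38% of the shCHD4#2 calls. The test of the difference between the steps called 0 genes by limma, with 4581 at an unadjusted p under 0.05, and 2 by edgeR and 1192 by DESeq2. With each pair of libraries as its own block limma called 634. With the additive blocks it called 2653 without shCHD4#2 at 48 h replicate 1. So whether the steps of the hairpins differ depended on the model, and the larger number of calls with shCHD4#2 does not by itself show a difference.

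By annotated type, more antisense and long intergenic noncoding genes rose than fell, and more coding genes fell than rose. Of 14154 protein-coding genes 5.27% rose and 11.1% fell. Of 1560 antisense genes 133 rose (8.53%) and 20 fell (1.28%), and of 1498 long intergenic noncoding genes 104 rose (6.94%) and 39 fell (2.60%). Other noncoding types did not share this: 0 of 262 snoRNA genes rose and 12 fell, and of 742 processed pseudogenes 8 rose and 34 fell. The levels of the types differ, with median normalised counts of 1233 for coding, 47.1 for antisense and 39.0 for intergenic genes. Within mean levels of 10 to 30, 4.27% of antisense genes rose and 0.171% fell, against 6.49% and 1.89% of coding genes. Within 30 to 100 the shares were 6.85% and 0.622%, against 8.74% and 4.33%. At these low levels, which hold most antisense genes, coding genes thus also rose more often than they fell, and a smaller share of antisense genes rose. Within mean levels of 100 to 300, 15.2% of antisense genes rose and 1.86% fell, against 8.42% and 8.19% of coding genes. From 300 to 1000 the shares were 18.3% and 2.44%, against 6.86% and 9.46%. Antisense values are uncertain where the strand setting of the counting is not given.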

How the data were processed

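The deposited table of 28 libraries holds a normalised signal, each gene's reads scaled by its library's size factor. The submitters' processing notes list GRCh38, DESeq2 1.34.0, featureCounts 1.6.0, SAMtools 1.7, HISAT2 2.1.0 and FastQC 0.11.7, without roles. The strand setting of the counting, the annotation release and how shared reads were treated are not given there. The share of values that were whole multiples of 1 read, within a tolerance of 0.02, was 99.986% in the lowest library, so reads could be recovered (edgeR called 2806 genes on them), and 0 columns lacked a sample.

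A gene was tested where its mean over the libraries compared reached 10, with limma-trend (limma 3.58.1, R 4.3.3) on log2(value + 1), which understates changes of low genes, with hairpin and replicate number as additive blocks. The shScramble fit used 10 libraries and the difference of steps 22. P-values were two-sided, adjusted by Benjamini-Hochberg over all genes tested and called at 0.05. Replicate numbers paired the samples: deviations of same-numbered libraries of a hairpin at the 2 times correlated at 0.25 to 0.64 for both CHD4 hairpins. In shScramble they correlated at 0.38 to 0.65, but replicate 5 (0.38) matched another number better (0.48). Whether shScramble numbers match those of the CHD4 hairpins was not tested, though the difference of steps shares these blocks. Replicates differed by more than sampling noise (chi-square of 8.72 to 149 per gene), so none was taken as a repeat deposit. On simulated data 80.6%, 95.5% and 100% of genes changed 1.5-, 2- and 3-fold were recovered in the 12-library comparison of 20831 genes. The changed genes had a mean of at least 50 reads. No replicate or hairpin effects were simulated, and the step was the same in every pair. Recovery for lower genes or uneven steps was thus not measured.

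Members, the 32 gene lists and the named-gene rule were chosen with earlier results of these data known. The rule named CHD4; the 12 largest rises and falls among called genes with all 6 pairs in 1 direction and a mean of at least 100 at the higher time; up to 4 called members per list by smallest adjusted p; and up to 4 genes per direction for each difference of steps. Positions are those of GENCODE 29 (34232 of 35488 genes found) and promoters those of RefSeq. Alternatives were other pseudocounts (0.5 and 5), no filter or a mean of at least 50, quantile normalisation, median centring, other blocks, spread from all 28 libraries, edgeR 4.0.16 and DESeq2 1.42.0 on recovered reads, and leaving out libraries or replicate numbers. One of the 12 falls is not reported here. Reading called genes in the replicate or hairpin left out, list counts without replicates and counts by gene type were added after seeing the data.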

Additional observations from a re-analysis of the deposited data

Results flagged for a closer look

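For 6 genes the step from 24 to 48 h differed between CHD4 knockdown and shScramble by limma's test of the difference: DENND1A (log2 0.96), LRRC6 (0.79), TVP23C-CDRT4 (0.65), CCDC144NL-AS1 (2.49), CYP4F22 (-1.13) and FCGRT (-0.68).

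Among the 5 shScramble libraries of each time, 70 groups of values were tested for a library far from the rest, for the named rises, falls and differing genes and for 5 library shares, and 6 held one. Chance gives about 1 in 20. EGR1 stood at 34.8 in replicate 2 at 24 h. Replicate 1 was highest at 48 h for DHRS2 (106) and GNG12 (123), and at both times for ANKRD20A9P (13 and 15.2). It was lowest at 24 h for PLA2G3 (364).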

How the results depend on the processing

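Genes called over time numbered 2852 and stayed within 1.5 times that count except with no filter on low values (1861) and no replicate block (396), and with libraries left out (216 to 3108). For shCHD4#1 (962) the count moved to 312 with no filter, 0 with no replicate block (2203 at an unadjusted p under 0.05), 204 with the spread from all 28 libraries and 1696 with DESeq2, and ranged from 0 to 1640 with libraries left out. For shCHD4#2 (3998) it moved to 2563 with no filter and 331 with no replicate block, and ranged from 84 to 5220. The difference between the hairpins (0) became 2 with a pseudocount of 0.5, 634 with a replicate block by pair, 13 with the spread from all 28 libraries, 2 with edgeR and 1192 with DESeq2, and ranged from 0 to 2653. The shScramble step (0) became 4 with a pseudocount of 5, 8 with edgeR and 79 with DESeq2, and ranged from 0 to 10. The difference from shScramble (6) became 11 and 17 with pseudocounts of 0.5 and 5, 14 with a mean of at least 50, 17 with quantile normalisation (6 higher, 11 lower), 13 with median centring (6 higher, 7 lower), 0 with no replicate block, 127 with a replicate block by pair (31 higher, 96 lower), 23 with the spread from all 28 libraries, 11 with edgeR (4 higher, 7 lower) and 348 with DESeq2, and ranged from 0 to 58. CHD4 turned sign with quantile normalisation (log2 0.0136), without replicate 3 and without replicate 3 of shCHD4#2 at 24 h or 48 h, ranged from -0.0653 to 0.0192 with libraries left out, and was not called in any of these. Without replicate n was not run for shScramble alone. With 3 libraries per hairpin and time, and steps near 0.37, calls of single genes rest on few libraries. The causes were not tested.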

Other observations

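The genes named here were chosen after their values were seen. IGF2, an insulin-like growth factor best known from fetal tissues, ranged from 8.05 to 23.3 (median 18.8) at 24 h and from 24.7 to 78.9 (median 74.5) at 48 h, with no overlap and all 6 pairs rising (log2 1.74, SE 0.16, adjusted p = 0.000651 by limma). In shScramble it stayed at 1.62 to 7.09 and then at 1.03 to 8.93, and the difference of steps was 2.03 (adjusted p = 0.136). The overlapping gene AC132217.2 has the same values in every library, so the reads cannot be assigned to one of them. IGDCC4, an immunoglobulin superfamily receptor, ranged from 134 to 607 (median 314) and then from 351 to 1402 (median 649.7) and rose in 6 of 6 pairs (log2 1.08, SE 0.10, adjusted p = 0.000651). Its shScramble libraries ranged from 60.2 to 107 and then from 37.1 to 234, below every knockdown library of the same time. The control step was 0.31, and the difference of steps did not pass (log2 0.76, adjusted p = 0.354).

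SRD5A3, a reductase needed to make the dolichol carrier of protein glycosylation, ranged from 1254 to 1783 (median 1673) and then from 706 to 1178 (median 997), without overlap (log2 -0.67, SE 0.07, adjusted p = 0.000651), and was at -0.03 in shScramble. Its difference of steps did not pass (log2 -0.64, adjusted p = 0.0797). PTMA, prothymosin alpha, is among the most abundant of these transcripts. It fell from a mean of 43856 to 28314 (log2 -0.63, SE 0.06, adjusted p = 0.00073), with -0.59 and -0.68 for the 2 hairpins and -0.18 in shScramble. For PTMA too the difference of steps did not pass (log2 -0.45, adjusted p = 0.189).

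Genes called with 1 hairpin fitted alone were read in the other. Of the 736 called higher with shCHD4#1, 67.0% had a mean step above 0 with shCHD4#2 (48.2% of all genes), and of the 926 called lower 79.6% were below 0 (51.8%). Of the 1248 called higher with shCHD4#2, 66.7% were above 0 with shCHD4#1 (48.5% of all genes). Of the 1681 called lower 79.5% were below 0 (51.5%). The shScramble step had the sign of the pooled call in 66.5% of genes called higher over both hairpins and 76.2% of those called lower. Same-numbered libraries of the 2 hairpins also correlated within a time (0.26 to 0.74), so the other hairpin was not an independent reading. These shares were not tested against those in shScramble.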
